A study of Enchytraeus crypticus with 30 samples.

Results

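In *Enchytraeus crypticus*, a small white soil worm used in standard toxicity tests, 5 array probes gave a clear signal in every sample of unexposed worms and a signal too dim to stand well above background in nearly every sample of worms kept in soil with nickel nitrate at its higher dose. They were contig12687, contig05196, contig05194, contig08330 and GYUW2K402I2XT6, and they were 5 of the 43750 gene probes on the array. A probe was chosen when it was well above background on all 6 control arrays and not well above background on at least 5 of the 6 arrays of nickel nitrate at EC50. It also had to fail the test for a positive and significant signal on at least 1 of the 30 arrays. Well above background is a flag that the scanner software sets on each spot. A probe that carries it is called detected here.

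Nickel is an essential trace element in some organisms and toxic to soil invertebrates in excess. A nickel salt dissolves in the water of the soil, whereas metallic nanoparticles release ions as they corrode, so the same metal reaches worms in different forms. A probe on a one-colour array reports the amount of 1 labelled RNA in the sample. At low amounts the spot fades into the local background, and the scanner software then records a small signal or a substitute value that carries little order.

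The worms were adults with a developed clitellum, the gland that marks maturity. Each sample was 1 pool of 20 whole worms from its own vessel, kept without food, and was hybridised to 1 array. The unspiked-soil controls and the 4 exposures were sampled after 3 and 7 days with 3 arrays each, which made 10 conditions. The exposures were nickel nitrate at EC20 and EC50 (NiNO3 EC20 and NiNO3 EC50) and nickel nanoparticles at EC20 and EC50 (Ni-NPs EC20 and Ni-NPs EC50). EC20 and EC50 are the lower and the higher of the doses, each set for its own material from its effect on reproduction, so the salt and the particles were matched on effect and not on the mass of nickel. Whole worms hold many tissues, so a lower signal from fewer cells of a kind and one from less RNA per cell cannot be told apart.

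The files name the probes by assembled sequence and give no gene names, so no function was assigned to the 5 probes. A name that starts with contig stands for a sequence assembled from several reads, and GYUW2K402I2XT6 has the form of a single read's name. The probe identifiers on the array were CUST_18461_PI427420766_b for contig12687, CUST_331_PI427420766_b for contig05196, CUST_5354_PI427420766_b for contig05194, CUST_23188_PI427420766_b for contig08330 and CUST_63838_PI427420766_b for GYUW2K402I2XT6. Their spots lay apart on the array, in rows 114, 233, 437, 462 and 354. None of the spots was saturated or marked as an outlier on any array.

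On the array as a whole, between 44.9% and 76.3% of the probes were detected on an array. The arrays of NiNO3 EC50 were not dimmer than the controls, with medians of 59.1% and 56.3% of probes detected over 6 arrays each. The arrays came from 10 slides and were scanned on 3 days (22, 3 and 5 arrays). The 3 arrays scanned on the second of these days shared a slide and included the array with the most detected probes, 76.3% (Ni-NPs EC20 day 3 replicate 3). NiNO3 EC50 day 3 replicate 3, with 71.2%, was on the same slide.

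Of the 43750 probes, 19825 were detected on all 6 control arrays, and 76 of these also failed the test for a positive and significant signal on at least 1 array. Of the 76, 36 were detected on all NiNO3 EC50 arrays, 21 were not detected on 1 of them, 6 on 2, 4 on 3, 4 on 4, 4 on 5 and 1 on all 6. The last 2 of these numbers are the 5 probes, and contig08330 is the single probe not detected on all 6. Without NiNO3 EC50 day 3 replicate 3 the same rule, with 1 exception allowed, chose 9 probes, and without Control day 7 replicate 1 or replicate 3 it chose 8. Each of these sets held the 5, which the rule with 1 exception allowed guarantees. Just outside the threshold, 4 probes were not detected on 4 arrays. Contig23244 had mean log2 signals of 5.73 in controls and 2.67 at NiNO3 EC50. The means were 5.54 and 2.33 for GYUW2K401CLOKO. They were 4.88 and 2.42 for contig04200, and 4.66 and 2.80 for contig04198.

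The name "switched off" holds for detection and not for the flag of a positive and significant signal. Each of the 5 probes had a positive and significant signal on 28 of the 30 arrays. On the NiNO3 EC50 arrays that signal failed on 1 array for contig12687 (day 3 replicate 1) and on 1 array for contig05196 (day 7 replicate 2), and on no array for the other 3. With absence of a positive and significant signal as the definition of off, 0 probes met the rule. The probes were therefore dim at NiNO3 EC50, and mostly measurable.

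Levels below are log2 signals with 1 shift per array, a Median normalization set from the probes of these 30 arrays, on which the median of the analysed probes was 5.95. In the controls (n = 6) the 5 probes were dim among the detected probes, whose median was 6.67. The mean was 5.46 ± 0.94 (SD) for contig08330, 4.63 ± 0.28 for contig05196, 4.47 ± 0.73 for contig12687, 4.41 ± 0.57 for contig05194 and 3.50 ± 0.41 for GYUW2K402I2XT6. Contig08330 lay at the 29.4 percentile of the 19825 probes detected on all controls, and GYUW2K402I2XT6 was among the lowest of them, at the 0.0252 percentile. The lowest signal that counted as detected lay between 1.60 and 4.01 on the same scale, so the limit of detection itself moved between arrays.

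Contig08330 was the brightest of the 5 in controls. Its control levels were 6.69, 6.23 and 5.72 on day 3 and 5.05, 4.10 and 4.98 on day 7. At NiNO3 EC50 they were 3.09, 2.01 and 2.08 on day 3 and 1.37, 1.78 and 2.91 on day 7. All 6 NiNO3 EC50 arrays lay below all 6 controls, and none was detected. At NiNO3 EC20 the levels were 1.95, 4.18 and 3.12 on day 3 and 4.30, 2.48 and 4.14 on day 7, with detection on 3 of 6 arrays. On day 3 these were all below the controls, and on day 7 they overlapped them. With Ni-NPs EC20 the levels were 4.17, 4.44 and 3.93 on day 3 and 4.13, 4.55 and 2.84 on day 7, detected on 5 of 6 arrays. With Ni-NPs EC50 they were 2.21, 1.84 and 1.93 on day 3 and 2.53, 2.88 and 3.21 on day 7, detected on 2 of 6 arrays. On day 3 the nanoparticles at EC50 gave levels that overlapped those of NiNO3 EC50, with no detection on any array.

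For contig12687 the control levels were 3.66, 4.92 and 4.68 on day 3 and 4.10, 3.87 and 5.61 on day 7. At NiNO3 EC50 they were 1.27, 1.97 and 2.71 on day 3 and 1.60, 3.00 and 2.58 on day 7, and the 2.71 of day 3 replicate 3 was detected. All 6 lay below all 6 controls. At NiNO3 EC20 they were 2.11, 2.34 and 3.08 on day 3 and 3.36, 3.32 and 3.48 on day 7, with detection on 1 of 6 arrays. With Ni-NPs EC20 the probe was detected on all 6 arrays, at 4.41, 3.75 and 4.04 on day 3 and 4.40, 5.15 and 3.49 on day 7. These levels overlapped the controls on both days, while the NiNO3 EC20 levels overlapped on neither. With Ni-NPs EC50 the levels were 2.98, 3.59 and 2.21 on day 3 and 2.21, 3.28 and 2.91 on day 7, detected on 2 of 6 arrays and below the controls of the same day.

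Contig05196 had the steadiest controls, at 4.65, 4.42 and 5.15 on day 3 and 4.66, 4.49 and 4.41 on day 7. At NiNO3 EC50 it was at 2.74, 2.89 and 2.27 on day 3, where the dimmest, 2.27 of replicate 3, was the one detected. On day 7 it was at 1.18, 0.34 and 2.13. The gap to the control mean was thus wider on day 7 in measured signal, but no array of that day was detected. With undetected values at each array's lowest detected signal, the difference from control was -1.91 on day 3 and -1.77 on day 7. Which day had the wider gap therefore rests on undetected signal. Neither day overlapped the controls. At NiNO3 EC20 the levels were 1.67, 3.95 and 2.69 on day 3 and 3.75, 2.72 and 2.82 on day 7, detected on 2 of 6 arrays. With Ni-NPs EC20 they were 3.47, 3.36 and 4.36 on day 3 and 4.20, 4.90 and 3.68 on day 7, detected on 5 of 6. On day 3 the Ni-NPs EC20 levels were all below the controls, and on day 7 they overlapped. With Ni-NPs EC50 they were 3.61, 3.82 and 2.74 on day 3 and 2.43, 3.30 and 3.14 on day 7, detected on 4 of 6.

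Contig05194 varied more between replicates. Its controls were at 4.75, 5.01 and 3.70 on day 3 and 4.90, 3.77 and 4.35 on day 7. At NiNO3 EC50 it was at 2.91, 3.92 and 1.26 on day 3 and 2.26, 2.49 and 2.77 on day 7. The 3.92 of day 3 replicate 2 was detected and lay within the control range, so the groups overlapped on day 3 and not on day 7. At NiNO3 EC20 the levels were 2.18, 3.05 and 3.18 on day 3 and 4.19, 3.60 and 0.77 on day 7, detected on 2 of 6. On day 3 these were all below the controls and on day 7 they overlapped. With Ni-NPs EC20 they were 4.21, 2.38 and 3.08 on day 3 and 4.75, 3.17 and 0.77 on day 7, detected on 4 of 6. With Ni-NPs EC50 the levels were 3.98, 4.28 and 3.59 on day 3 and 2.93, 3.50 and 0.80 on day 7, detected on 3 of 6. Replicate 3 of day 7 was the lowest of its 3 arrays in all of these 3 exposures, at 0.77 to 0.80, and these 3 arrays were scanned on the third day. The other arrays of that scan day gave 3.17 (Ni-NPs EC20 day 7 replicate 2) and 2.38 (Ni-NPs EC20 day 3 replicate 2).

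GYUW2K402I2XT6 was the weakest case. Its controls were at 3.17, 3.52 and 4.24 on day 3 and 3.61, 3.11 and 3.38 on day 7. At NiNO3 EC50 it was at 3.13, 1.98 and 3.04 on day 3 and 2.38, 2.54 and 2.80 on day 7. The highest of these, 3.13, was not detected and was above the lowest control, 3.11 of day 7. The levels at NiNO3 EC20 were 2.74, 3.24 and 3.25 on day 3 and 3.57, 2.94 and 1.10 on day 7, detected on 1 of 6. With Ni-NPs EC20 they were 3.39, 3.84 and 2.48 on day 3 and 2.83, 4.88 and 2.92 on day 7, detected on 4 of 6. With Ni-NPs EC50 they were 1.34, 4.79 and 3.56 on day 3 and 0.64, 3.00 and 2.46 on day 7, detected on 2 of 6. The Ni-NPs EC50 arrays of day 3 thus ran from below every control to above every control.

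**Figure D1:**
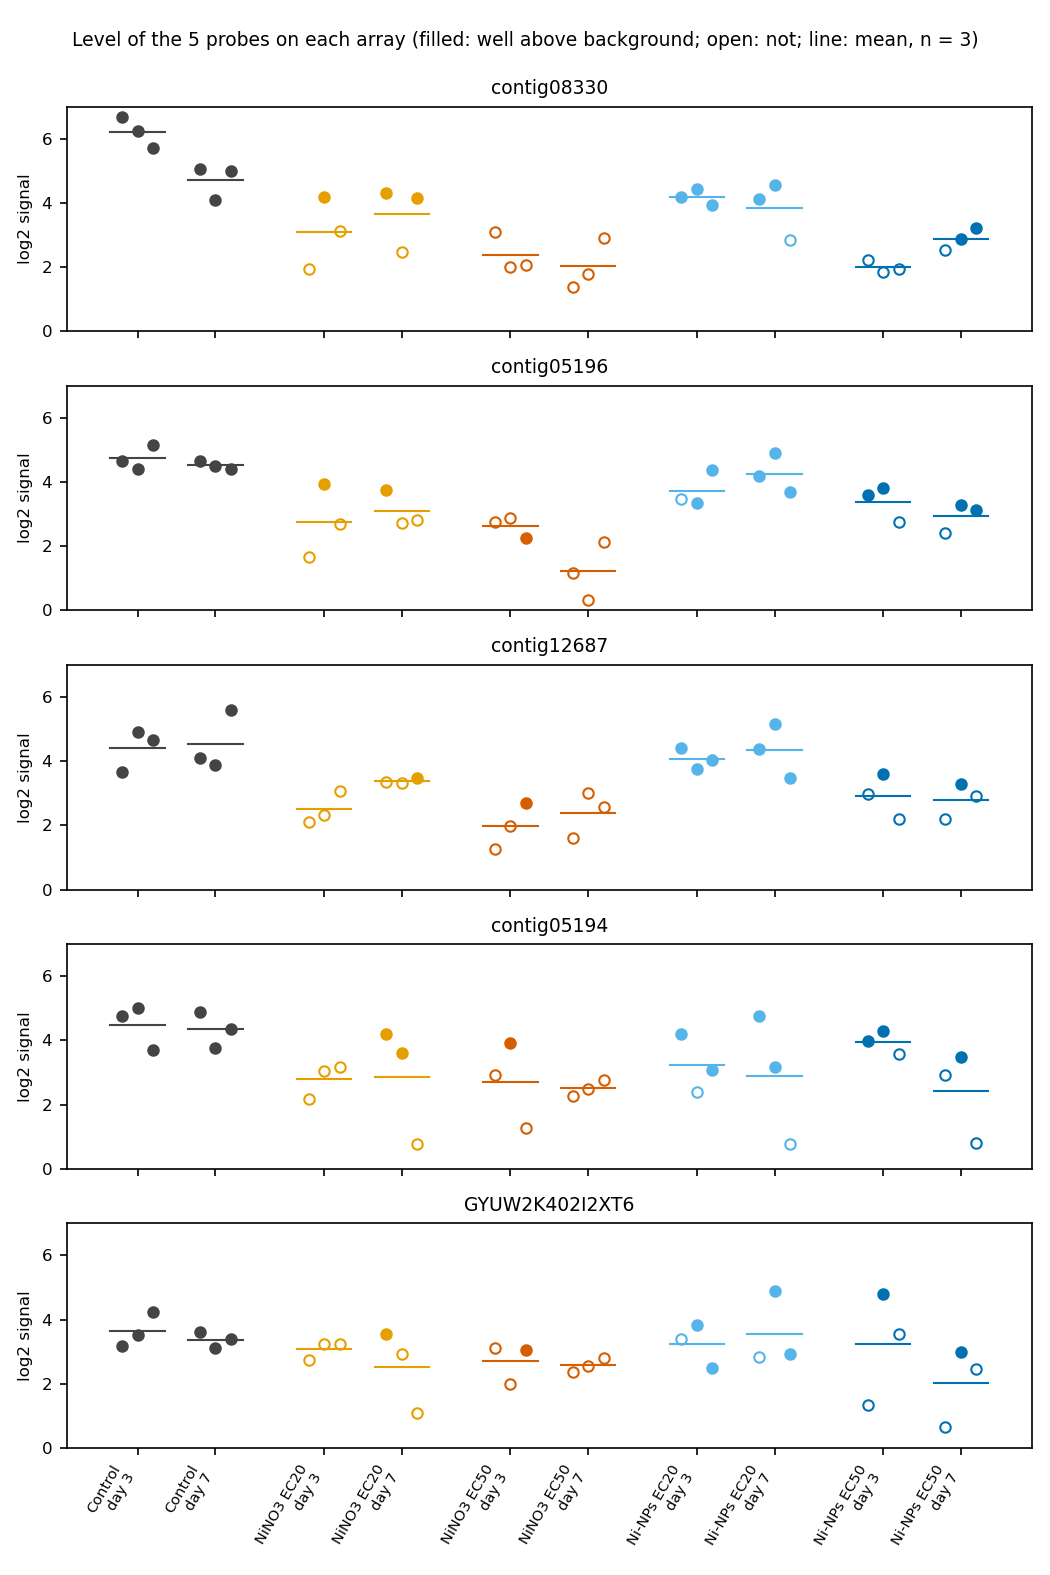
Median-normalized log2 signal (y axis) of the 5 probes, 1 panel each, on the 30 arrays grouped by exposure and day (x axis, n = 3 per condition). Filled points were well above background, open points were not, and lines are condition means. Contig08330, with a control mean of 5.46, has no filled point at NiNO3 EC50, and it has open points in each of the other exposures as well.

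Detection of the 5 probes was counted over all 10 conditions, out of 15 possible in each (5 probes on 3 arrays). The controls gave 15 on both days, as the rule requires. On day 3 the number was 2 at NiNO3 EC20, 4 at NiNO3 EC50, 12 with Ni-NPs EC20 and 6 with Ni-NPs EC50. On day 7 it was 7 at NiNO3 EC20, 0 at NiNO3 EC50, 12 with Ni-NPs EC20 and 7 with Ni-NPs EC50. Over both days, of 30, the nitrate at its lower dose gave 9 detections and the nanoparticles at their lower dose 24. The nanoparticles at EC50 gave 13, between the EC20 of the nitrate and their own. The 76 probes from which the 5 were drawn followed the same order at EC20: at NiNO3 EC20 50% of their spots were detected on day 3 and 70.6% on day 7, against 82.5% and 76.8% with Ni-NPs EC20. With Ni-NPs EC50 it was 52.6% on day 3 and 83.8% on day 7. No single one of the 5 accounted for the order: at NiNO3 EC20 each probe was detected on 1 to 3 of 6 arrays, and with Ni-NPs EC20 on 4 to 6.

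The brightness of the arrays is given beside these counts. All 4 detections at NiNO3 EC50 were on day 3, and 3 of them were on replicate 3, the array with 71.2% of probes detected. That array had the lowest limit of detection of its group, a log2 level of 1.97, against at most 3.21 on the others. Ni-NPs EC50 day 3 replicate 3, the dimmest array at 44.9%, showed none of the 5. The 3 arrays of NiNO3 EC50 day 7, where none of the 5 was detected, had 57.3% to 63.5% of probes detected, more than any control of that day, whose highest was 55.8%. The rule asked for non-detection on the NiNO3 EC50 arrays, and the part of array brightness in any of these counts was not tested.

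**Figure D2:**
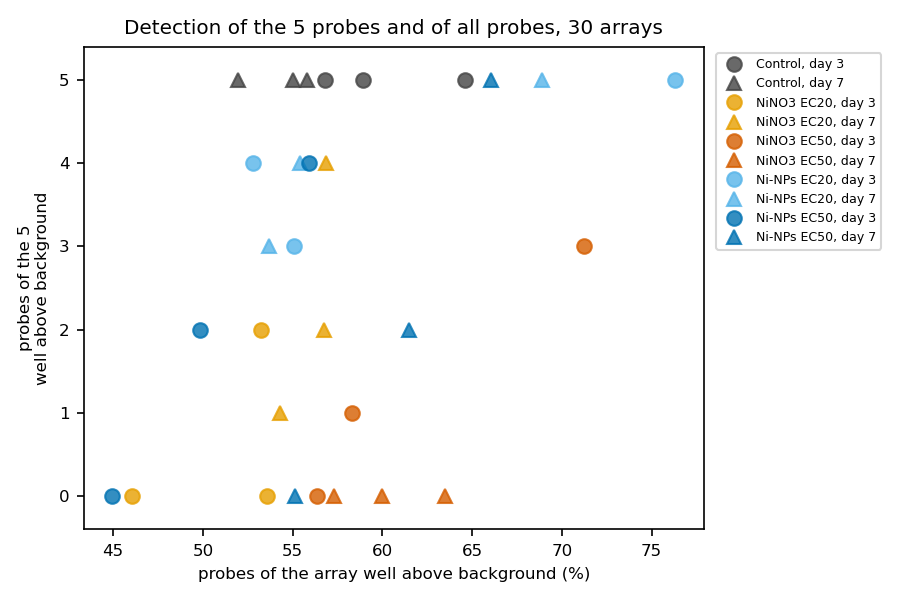
Number of the 5 probes well above background on each array (y axis) against the share of all probes that were well above background there (x axis, percent), for 30 arrays. Colour gives the exposure, and circles and triangles give day 3 and day 7. Controls sit at 5 by the choice of the probes, and the NiNO3 EC50 arrays, which also entered the choice, sit at 0 to 3. The share of detected probes was 56.4% to 71.2% on the NiNO3 EC50 arrays and 52.0% to 64.6% on the controls.

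The differences from the same-day control are a description, since the control and NiNO3 EC50 arrays chose the probes. The median difference of the 5 probes on day 3 was -1.91 at NiNO3 EC20, -2.11 at NiNO3 EC50, -1.01 with Ni-NPs EC20 and -1.35 with Ni-NPs EC50. On day 7 it was -1.14, -2.13, -0.26 and -1.73 in the same order. The 8 comparisons share the controls of their day. With undetected values at each array's lowest detected signal, the day 3 medians were -0.83, -1.46, -0.97 and -0.70 in the same order. The day 3 order of NiNO3 EC20, Ni-NPs EC20 and Ni-NPs EC50 therefore rested on undetected signal. The value for Ni-NPs EC20 on day 7 rested on single arrays: it was 0.03 without replicate 3 of that condition, -0.58 without replicate 2 and -0.51 without Control day 7 replicate 2. Over the 19825 probes detected on all controls, the median difference stayed between -0.05 and 0.01. For the 76 probes that also failed once to give a positive and significant signal, a set picked in part for low values, it was between -0.79 and -0.17.

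The number of the 5 probes whose 3 treated arrays all lay below the 3 controls of that day was 4 at NiNO3 EC20 day 3, where 5.4% of the 19825 probes did so. It was 4 at NiNO3 EC50 day 3 (9.21% of the 19825), 2 with Ni-NPs EC20 day 3 (8.26%) and 3 with Ni-NPs EC50 day 3 (12%). On day 7 it was 2 at NiNO3 EC20 (5.43%), 5 at NiNO3 EC50 (13.3%), 0 with Ni-NPs EC20 (2.54%) and 5 with Ni-NPs EC50 (5.85%). The share was larger in every exposure among the 76 probes from which the 5 were drawn, which include the 5. On day 3 it was 14.5% at NiNO3 EC20, 23.7% at NiNO3 EC50, 18.4% with Ni-NPs EC20 and 34.2% with Ni-NPs EC50. In the same order it was 11.8%, 26.3%, 6.58% and 19.7% on day 7. Over all probes the shares in that order were 4.27%, 8.32%, 7.32% and 11.6% on day 3. They were 3.73%, 18.1%, 3.19% and 13.2% on day 7. The controls that chose the probes enter each of these counts, so nothing about the probes is read from the NiNO3 EC50 values. GYUW2K402I2XT6 with Ni-NPs EC20 on day 7 was the single case of 40 in which the mean was above the control, by 0.18. The count of cases below control was 39 of 40 under each of the 6 scalings tried.

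**Figure D3:**
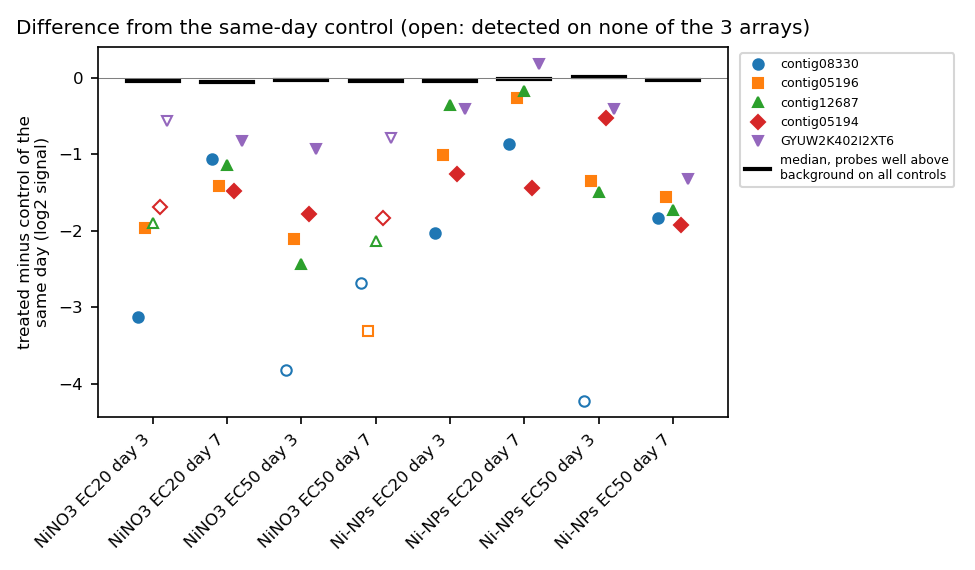
Mean of 3 treated arrays minus mean of the 3 same-day controls (y axis, log2 signal) for each of the 5 probes in the 8 exposures (x axis). Black bars mark the median of the 19825 probes detected on all controls. Open points were detected on none of the 3 treated arrays, so they lie in signal near background and have no order among themselves. All points but 1 lie below 0.

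Where no array of a condition detected a probe, its level there was treated as an upper bound. The fold was then taken against the mean over arrays of the lowest detected signal (or the probe's own signal, if higher). On that reading contig08330 was at least 10.9-fold lower than control at NiNO3 EC50 on day 3 (control mean 6.21) and at least 3.78-fold lower on day 7 (4.71). With Ni-NPs EC50 on day 3 it was at least 6.22-fold lower. At NiNO3 EC50 on day 7 the bound was at least 3.41-fold for contig05196, at least 3.14-fold for contig12687, at least 3.01-fold for contig05194 and at least 1.53-fold for GYUW2K402I2XT6. At NiNO3 EC20 on day 3 contig05194 was at least 1.78-fold lower and contig12687 at least 1.70-fold lower. For GYUW2K402I2XT6 in that condition, where it was also not detected, the bound gave no fold. The lowest detected signal was taken over all probes of an array, and a single probe could go undetected above it. On NiNO3 EC20 day 7 replicate 1, contig12687 was undetected at 3.36, where the lowest detected signal was 3.31. The words at least therefore hold for this way of setting the bound and are no guarantee for each probe. The control and NiNO3 EC50 arrays chose the probes, so these folds are a description.

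Some arrays of a treatment and its control shared a slide, which holds the slide and the day of scanning constant. On 1 slide, NiNO3 EC50 day 3 replicate 3 was below Control day 3 replicate 3 for all 5 probes, by 1.21 to 3.64. On another, NiNO3 EC50 day 7 replicate 1 was below Control day 7 replicate 2 for all 5, where the differences ran from -3.31 to -0.73. With Ni-NPs EC50 day 7 replicate 1, on the same slide as that control, they ran from -2.47 to -0.84. Of the 10 same-slide pairs, which reuse some arrays, 8 had all 5 probes lower in the treated array. The exceptions were Ni-NPs EC20 day 3 replicate 1 against Control day 3 replicate 1 (3 of 5 lower, and up to 0.75 above) and NiNO3 EC20 day 3 replicate 2 against the same control (4 of 5 lower, and 0.07 above). The control and NiNO3 EC50 arrays in these pairs chose the probes, and single arrays have no replicate check.

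The same rule was applied with the other exposures in place of NiNO3 EC50. It chose 7 probes for NiNO3 EC20 (9.21% of the 76), 5 for Ni-NPs EC50 (6.58%) and 0 for Ni-NPs EC20 (0%), next to the 5 for NiNO3 EC50 (6.58%). The number for NiNO3 EC50 was therefore not high among the exposures. Of the 7 for NiNO3 EC20, contig12687 and GYUW2K402I2XT6 were also among the 5, and the 5 for Ni-NPs EC50 held none of them. In the other direction, 18 probes were detected on all 6 NiNO3 EC50 arrays and went undetected on at least 5 of the 6 controls. These 18 also had to fail the test for a positive and significant signal on at least 1 array. The 21548 probes detected on all NiNO3 EC50 arrays were counted without that condition, so this base is unlike the 76.

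Tests compared only conditions other than control and NiNO3 EC50. All 30 arrays entered the fit, so the arrays that chose the probes also set the spread behind each SE. With only the arrays compared in the fit, 0 of the 5 were called as well. The first asked whether the forms of nickel differed at their EC20. The remaining arrays entered the choice only through the condition on a positive and significant signal, and the same 5 probes were chosen without that condition. All probes were fitted together with limma, and a probe was called at a Benjamini-Hochberg adjusted p under 0.05 over the 43750 probes. All 5 probes were lower at NiNO3 EC20 than with Ni-NPs EC20 on both days, and 0 of the 5 were called. For the mean of both days (6 arrays against 6) the median of their differences was -0.65, against 0.07 over all probes and -0.03 over those detected on all controls.

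For contig12687 that mean difference was -1.26 (SE 0.36, limma unadjusted p = 0.00209, adjusted p = 0.274), with a 95% interval that ended at -0.51. For contig05196 it was -1.06 (SE 0.35, limma adjusted p = 0.372, interval -1.79 to -0.34). The intervals of the other 3 included 0 in this fit, which has no term for scan day. The difference was -0.65 for contig08330 (-1.44 to 0.15), -0.58 for GYUW2K402I2XT6 (-1.66 to 0.49) and -0.23 for contig05194 (-1.54 to 1.07). The last of these turned to 0.01, 0.23 and 0.29 when Ni-NPs EC20 day 3 replicate 1, Ni-NPs EC20 day 7 replicate 1 or NiNO3 EC20 day 7 replicate 3 was left out. It was -1.37 with scan day as a block (limma unadjusted p = 0.000994, adjusted p = 0.265). On the first scan day alone it was -1.13, where replicate 1 was the only Ni-NPs EC20 array of each day. Scan day was uneven over these groups, with 1 NiNO3 EC20 array and 4 Ni-NPs EC20 arrays outside the first. With undetected values set to each array's lowest detected signal, the difference was -0.71 for contig12687 and -0.47 for contig05196. At an unadjusted p under 0.05, 2 of the 5 probes passed, against 10.2% of all probes, and 0.0366% of all probes (16) were called. Without Ni-NPs EC20 day 3 replicate 3 that number over all probes was 0, and without NiNO3 EC20 day 3 replicate 3 it was 41.

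On day 3 alone 1 of the 5 probes, contig12687, had an unadjusted p under 0.05 (difference -1.55, limma adjusted p = 0.472). It was detected on none of the NiNO3 EC20 arrays of that day, and with undetected values at the lowest detected signal the difference was -0.41 (limma unadjusted p = 0.308). On that day 0% of all probes were called. On day 7 alone it was contig05196 (-1.16, limma adjusted p = 0.745), and 0.00457% of all probes (2) were called. Whether the difference between the forms changed from day 3 to day 7 was tested as an interaction. It was called for 0 of the 5 probes and 0% of all probes. The smallest unadjusted p among the 5 was 0.259 (limma) for contig08330, and the median change was 0.38.

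The second test asked whether the 5 probes were lower at the higher dose of nanoparticles than at the lower one. On day 3 contig08330 was lower by 2.19 at Ni-NPs EC50 than at Ni-NPs EC20, a difference of -2.19 (SE 0.54, limma unadjusted p = 0.000536, adjusted p = 0.468). Its interval ran from -3.31 to -1.06, all 3 EC50 arrays lay below all 3 EC20 arrays, and the probe was detected on none of the EC50 arrays. With undetected values at the lowest detected signal the difference was -0.60 (limma unadjusted p = 0.147), so its size rests on signal near background. Contig12687 differed by -1.14 (SE 0.51, limma adjusted p = 0.646), and -0.34 with undetected values at the lowest detected signal. The intervals of the other 3 included 0, and contig05194 was higher by 0.73. Of the 5, 4 were lower, with a median difference of -0.34 against 0.08 over all probes. On day 3, 0 of the 5 probes and 0% of all probes were called, and 2 of the 5 had an unadjusted p under 0.05, against 7.70% of all probes.

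On day 7 all 5 probes were lower at Ni-NPs EC50, with a median difference of -1.30 against -0.08 over all probes. Contig12687 differed by -1.55 (SE 0.51, limma adjusted p = 0.772) and contig05196 by -1.30 (SE 0.50, adjusted p = 0.840). Both had an unadjusted p under 0.05, as did 5.38% of all probes, and 0 of the 5 and 0% of all probes were called. GYUW2K402I2XT6 differed by -1.51, contig08330 by -0.97 and contig05194 by -0.49, each with an interval that included 0. For contig05194 the difference was 0.44 without Ni-NPs EC20 day 7 replicate 1 and 0.32 without Ni-NPs EC50 day 7 replicate 3. It was -1.35 with scan day as a block (limma unadjusted p = 0.00998, adjusted p = 0.294). On the first scan day alone it was -1.53, where Ni-NPs EC20 day 7 replicate 1 was the only array of its condition. With the replicate block 0 of the 5 and 3 of all probes were called, and GYUW2K402I2XT6 had an unadjusted p of 0.0468 (limma adjusted p = 0.803). With 3 arrays a condition and levels near the limit of detection, the SE of a single probe's difference on 1 day was 0.50 to 0.89 for the 5 probes. A difference larger than its SE could still have an interval that included 0, as the -0.97 of contig08330 did (-2.10 to 0.15). Even the -2.19 of that probe on day 3 was not called after adjustment.

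**Figure D4:**
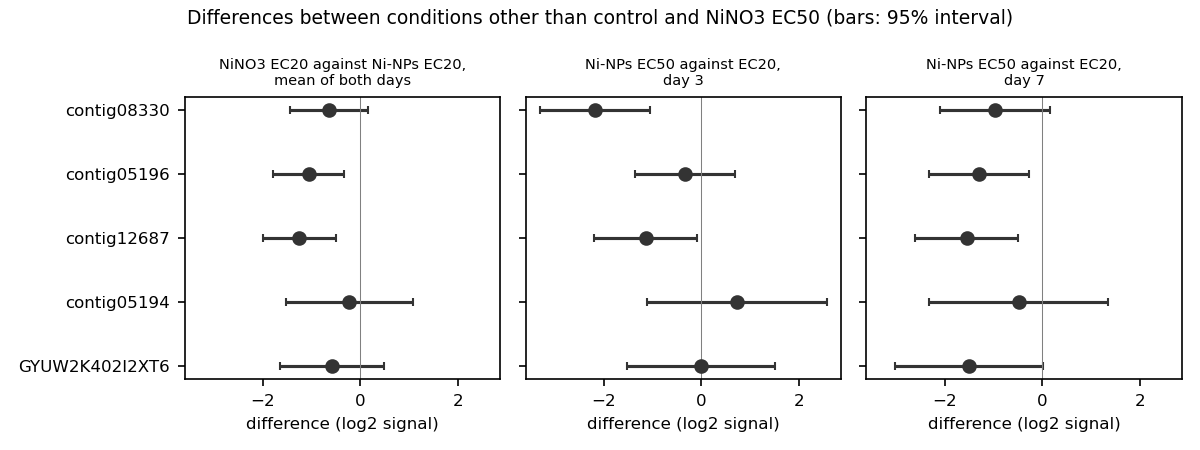
Difference in log2 signal (x axis) with its 95% interval for the 5 probes (y axis) between NiNO3 EC20 and Ni-NPs EC20 over both days, and between Ni-NPs EC50 and Ni-NPs EC20 on day 3 and day 7. Intervals are unadjusted and take undetected signals at their measured value. Those of contig12687 lie below 0 in all 3 panels, and none of the 5 probes was called after adjustment over all probes.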

How the data were processed

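RNA from pools of 20 adult worms was labelled with Cy3, and each pool was hybridised to 1 custom Agilent one-colour array. The authors extracted the intensity files with Agilent Feature Extraction 10.7.3.1, and the deposited intensities are background-subtracted signals with no normalization between arrays. The deposited flags (another unit, 0 or 1) mark each spot as well above background or as positive and significant. The deposited value table held the same intensities, within 0.00719 on the log2 scale. The 5 probes, the rule and the tests were chosen with earlier results of these data known. All 5 probes may be named by the rule for named genes.

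Log2 signals were shifted per array by the median over the 24653 probes positive and significant on all 30 arrays. The study's Median normalization was of this kind, set from its own larger set of arrays. The study used it as a conventional method for comparison, argues that it likely removes variation between conditions, and proposes MedianCD and SVCD normalization instead. The fit used all 43750 probes, since the 5 probes by their choice are not positive and significant on all 30 arrays. It had 1 mean per condition (limma 3.58.1 in R 4.3.3, eBayes, Benjamini-Hochberg). It was tested on simulated data. Slide and scan day came from the file headers. The methods describe the replicates as biological, 3 per condition, whose number limits the precision. Alternatives covered other normalizations, background, filters, blocks and left-out arrays. In 1 comparison, Ni-NPs EC50 with Ni-NPs EC20 on day 7, all same-numbered arrays correlated, at 0.192, 0.277 and 0.540. These correlations are of deviations from condition means, so they are not independent. The arrays of replicate 1 shared a scan day, as did those of replicate 3 (0.540), and the part of scan day was not tested. A pairing by replicate number is thus at most a hint from the data, not from the labels.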

Additional observations from a re-analysis of the deposited data

How the results depend on the processing

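Called probes among the 5 numbered 0 in each of the 6 tests under every alternative run, the left-out arrays and the methods' t-test included (the t-test could not be run for the interaction). The lowest limma adjusted p of any of the 5 was 0.0511 over 425 values from the alternatives and 0.156 over 750 values with 1 array left out, against 0.274 in the main setting. Of the 425 and the 750 values, 20 and 16 changed sign. Depth is signal over background here: most of the treated levels were near the limit of detection, where order is poor.

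The number of probes chosen was 1 with no detection asked on all 6 NiNO3 EC50 arrays, 9 with at least 4, 13 with detection on at least 5 of 6 controls, 0 with a positive and significant signal as the flag, and 9 with only the arrays of the first scan day (added after seeing the data). With 1 array left out it was 5 to 9. All 5 were kept each time, which the rule with 1 exception allowed guarantees, so that is no check of the choice.

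The median difference from control for Ni-NPs EC20 day 3 was -0.70 with MedianCD normalization, -0.75 with SVCD normalization and -0.77 with none. It was -0.67 on the first scan day alone, where replicate 1 was the only array of that condition. Undetected values were also set to each array's lowest detected signal. The medians on day 3 were then -0.83 at NiNO3 EC20, -1.46 at NiNO3 EC50, -0.97 with Ni-NPs EC20 and -0.70 with Ni-NPs EC50. NiNO3 EC20 and Ni-NPs EC50 thus lay nearer to control than Ni-NPs EC20 on day 3, the reverse of the main setting. Normexp on the median signal, chosen after seeing the data because the files hold no mean signal, adds an offset of 50 that compresses dim probes. It gave -0.19, -0.36, -0.29 and -0.17 on day 3 (NiNO3 EC20, NiNO3 EC50, Ni-NPs EC20, Ni-NPs EC50), and on day 7 -0.26 at NiNO3 EC20, -0.17 at NiNO3 EC50 and -0.39 with Ni-NPs EC50. The median of all probes against control lay between -0.11 and 0.03 in the main setting, -0.05 and 0.20 with MedianCD normalization and -0.16 and 0.27 with none.

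For contig05194, NiNO3 EC20 against Ni-NPs EC20 over both days turned to 0.058 with undetected values at the lowest detected signal and 0.053 with normexp. It was -1.37 with scan day as a block and -1.13 on the first scan day alone, where replicate 1 was the only Ni-NPs EC20 array of each day. It ran from -0.76 to 0.29 with 1 array left out, and the nanoparticle dose difference of day 7 from -1.55 to 0.44, with -1.35 and -1.53 in those scan-day settings. For GYUW2K402I2XT6 the difference between the forms was 0.057 on the first scan day alone.

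Over all probes, the 16 called for both days became 426 with MedianCD and 207 with SVCD normalization, 31 with Quantile normalization and 0 with none. They became 56 with an intensity trend, 28 without dim probes, 6 with normexp, 27 with scan day as a block, and 0 with the t-test or only the arrays compared. They became 0 without Ni-NPs EC20 day 3 replicate 3 and 41 without NiNO3 EC20 day 3 replicate 3. For 1 day the count ran from 0 to 35 (day 3) and 1 to 28 (day 7) with 1 array left out. For the nanoparticle dose it ran from 0 to 8 and 0 to 59. Counts for the first scan day alone are not given, since replicate 1 was there the only Ni-NPs EC20 array of each day. Replicate numbers did not pair the samples over the 4 pairs of conditions together: same-numbered arrays correlated at -0.334 to 0.681 over 12 pairs, 5 of them over 0.1. For Ni-NPs EC50 with Ni-NPs EC20 on day 7 all 3 correlations were over 0.1 (0.192, 0.277 and 0.540). The replicate block gave 30 calls for both days and called 0 of the 5 probes. Normexp on the mean signal was not run.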

Other observations

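Among the 76 probes from which the 5 were drawn, several carry neighbouring contig numbers, which was noticed after their values were seen. Contig05194 and contig05196 are both among the 5, and contig04198 and contig04200 lie just outside with 4 of 6 NiNO3 EC50 arrays not detected. Of the next-numbered probes on the array, contig05197 had mean log2 signals of 3.47 in controls and 3.50 at NiNO3 EC50, and contig05193, detected on 0 of 6 control arrays, could not show a loss of detection. Contig04196 and contig04197 were bright in both groups, at 8.81 and 8.93 and at 10.68 and 10.74. Contig04201 had means of 3.65 in controls and 4.03 at NiNO3 EC50. Contig05192 was at 2.71 in controls, detected on 1 of 6 arrays, and at 0.70 at NiNO3 EC50, a difference in undetected signal. Whether contigs of neighbouring number share sequence was not analysed here. Contig04198 and contig04200 differed from contig05194 and contig05196 with nanoparticles: each was detected on 3 of the 12 Ni-NPs arrays, against 7 and 9.

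With the rule applied to NiNO3 EC20 and no condition on a positive and significant signal, the number of probes chosen rose from 7 to 19, and for Ni-NPs EC50 from 5 to 8. For NiNO3 EC50 it stayed at 5, and for Ni-NPs EC20 at 0. The median share of detected probes was 53.9% on the NiNO3 EC20 arrays and 59.1% on the NiNO3 EC50 arrays. The part of that difference in the counts was not tested.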
